A study of Homo sapiens with 136 samples.

Results

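RNR1 and RNR2 are the ribosomal RNAs encoded by human mitochondrial DNA. They are 2 of the 25435 genes in the count table and 2 of the 15 genes of mitochondrial DNA that it lists. The pair was chosen by the difference in RNR1 counts between libraries given hydroxychloroquine alone and libraries given a Vps34 inhibitor alone, a difference seen in earlier results of these data. That difference is therefore given as a description, without a test. Tests are kept to the libraries that also received a kinase inhibitor.

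RNR1 is the 12S RNA, the core of the small subunit of the mitochondrial ribosome, and RNR2 is the 16S RNA, the core of the large subunit. Mitochondrial RNA polymerase copies them together, with the transfer RNA for valine between them, into a precursor that is cut at the transfer RNAs. The ribosome built on them translates the messenger RNAs of mitochondrial DNA, which code for subunits of the respiratory chain and of ATP synthase. Autophagy can deliver whole mitochondria with their RNA to the lysosome, and RNase there breaks RNA down. PLATE-Seq captures RNA by its poly(A) tail, so a mitochondrial ribosomal RNA enters the counts through a short tail or an internal run of adenines.

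On GRCh38 with the GENCODE release 29 annotation, RNR1 (MT-RNR1) lies at chrM:648-1601 on the plus strand. It is 954 bases long, with 1 exon and no coding sequence. RNR2 (MT-RNR2) lies at chrM:1671-3229 on the same strand and is 1559 bases long. The valine transfer RNA gene (MT-TV, chrM:1602-1670, 69 bases) fills the space between them. The start and end of each RNA are shown because the ends set where cutting and tailing take place, and the transfer RNA because it separates the pair. All are written 5′ to 3′ on the plus strand, and capitals mark runs of at least 4 adenines.
RNR1, first 60 bases, chrM:648-707: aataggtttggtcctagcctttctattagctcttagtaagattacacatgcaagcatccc
RNR1, last 100 bases, chrM:1502-1601: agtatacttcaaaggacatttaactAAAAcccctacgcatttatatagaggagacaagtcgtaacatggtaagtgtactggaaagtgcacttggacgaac
MT-TV, whole, chrM:1602-1670: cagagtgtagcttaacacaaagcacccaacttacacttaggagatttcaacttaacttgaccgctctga
RNR2, first 60 bases, chrM:1671-1730: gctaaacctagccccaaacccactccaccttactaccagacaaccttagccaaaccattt
RNR2, last 100 bases, chrM:3130-3229: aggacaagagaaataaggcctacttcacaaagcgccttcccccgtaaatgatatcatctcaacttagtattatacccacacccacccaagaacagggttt

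The last 100 bases of RNR1 hold 1 such run and those of RNR2 hold none. Over its whole length RNR1 has 9 runs of at least 4 adenines, the longest of 6, and RNR2 has 13, the longest of 7. Adenine makes up 33.02% of RNR1 and 35.09% of RNR2. Of the 924 stretches of 31 bases in RNR1, 0 occur in any other transcript of that annotation. Of the 1529 such stretches in RNR2, 485 (31.7%) occur elsewhere, mostly in nuclear copies of the MTRNR2L family, led by MTRNR2L12 (342) and MTRNR2L8 (278). Reads of RNR2 could therefore be split with those copies, but the 9 copies in the table held 5110 counts in all, 0.0356% of the counts of RNR2.

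The cells were AsPC-1 and PANC-1, human lines from pancreatic ductal adenocarcinoma, grown for 24 h and then treated for 24 h in multi-well plates. Each well received an autophagy inhibitor, either hydroxychloroquine, which raises the pH of lysosomes and blocks degradation in them, or Compound 19, an inhibitor of Vps34, a lipid kinase needed to start autophagosomes. Each autophagy inhibitor was used without a kinase inhibitor in 6 wells per line, and with each of 14 kinase inhibitors in 2 wells per line. The library names mark 1 of these 2 wells with A and 1 with B. These marks are read here as plate A and plate B, an inference, as the names do not use the word plate. Dabrafenib, GDC-0879, PLX8394, RAF709 and Sorafenib act on RAF. Binimetinib, Cobimetinib, Refametinib, Selumetinib and Trametinib act on MEK, and AZD0364, Ravoxertinib, SCH772984 and Ulixertinib on ERK. Doses were set per drug at 80% viability after 48 h as single agents, so they are matched on viability and not on concentration. After treatment the plates were frozen before PLATE-Seq. Every library therefore had an autophagy inhibitor, and no untreated cells were compared. Whether wells of a group came from separate cultures is not stated, so the p-values measure the spread between these wells.

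The libraries, 68 of each line, held 1419228 to 5871860 counts each. Among libraries with a kinase inhibitor, the Vps34 inhibitor had the lower mean total in both lines (2977320, against 3606130 for hydroxychloroquine, in AsPC-1 and 3154450 against 4007490 in PANC-1). RNR1 had at least 8008 counts and RNR2 at least 44010 in every library. A 95% Wilson interval for the share of counts is at most 0.0218 percentage points to either side for RNR1 and 0.0396 for RNR2, counting error only. All 5 epithelial markers were detected in both lines, at a summed 2538 to 7686 CPM (counts scaled to a common library total) in AsPC-1 and 331 to 848 in PANC-1. Of 3 immune markers, PTPRC and CD3E had a median of 0 in both lines and 1 was above 0, and the 3 summed to at most 9.24 CPM in AsPC-1 and 9.33 in PANC-1. Of 3 endothelial markers, VWF had a median of 0 in both and the other two were above 0, with sums of at most 2.08 and 2.97 CPM. The 3 fibroblast markers summed to 43.1 to 280.4 CPM in AsPC-1 and 23.4 to 116.8 in PANC-1, where LUM and DCN had a median of 0.

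With the autophagy inhibitors alone, RNR1 stood at separate levels in AsPC-1. With hydroxychloroquine the 6 libraries held 1.47% to 2.96% of their counts in RNR1 (median 2.04%). With the Vps34 inhibitor they held 0.418% to 0.561% (median 0.490%). The groups did not overlap, and the fitted difference, Vps34 inhibitor minus hydroxychloroquine, was −1.98 ± 0.09 (SE) on the log2 scale. In PANC-1 the shares were 0.544% to 0.640% (median 0.584%) and 0.367% to 0.500% (median 0.448%), also without overlap, with a fitted difference of −0.45 ± 0.10. These are the values that chose the pair. How often other genes separated without overlap in these libraries was not counted.

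RNR2 alone differed less. In AsPC-1 its share was 2.85% to 3.59% with hydroxychloroquine (median 2.90%) and 2.04% to 2.71% with the Vps34 inhibitor (median 2.45%), again without overlap. In PANC-1 the groups overlapped, at 1.54% to 2.56% (median 2.19%) and 1.87% to 3.15% (median 2.07%). Fitted log2 differences were −0.26 ± 0.13 and 0.12 ± 0.23. In bulk libraries like these, fewer cells holding an RNA and less of it per cell cannot be told apart. Whether capture through a tail or a run of adenines differed between the groups was not tested.

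**Figure D1:**
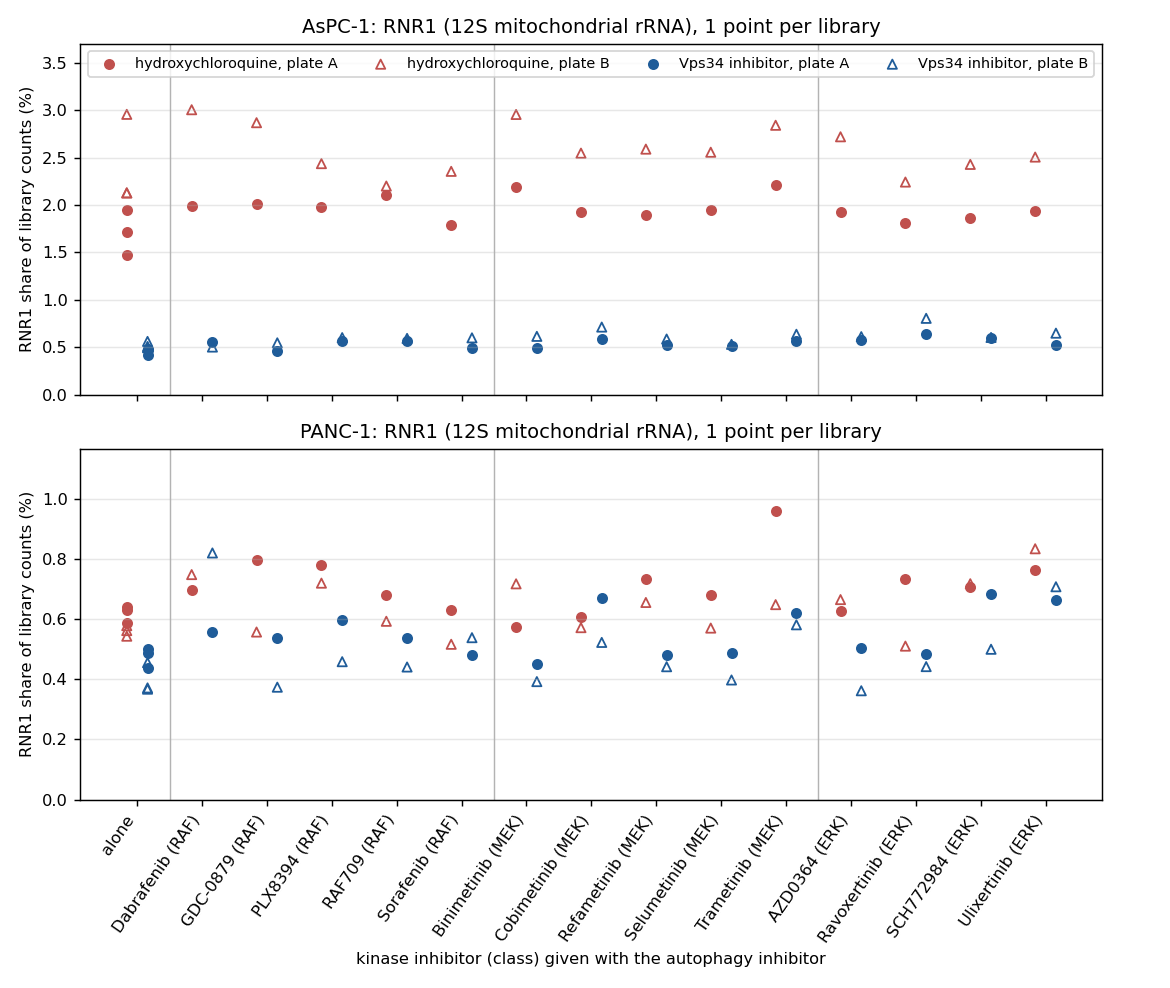
RNR1 as a percentage of each library's counts (vertical axis, from 0) for every kinase inhibitor and for the autophagy inhibitors alone, with 1 point per library; colour gives the autophagy inhibitor and shape the plate. In AsPC-1 all hydroxychloroquine points lie at or above 1.47% and all Vps34 inhibitor points at or below 0.804%, while in PANC-1 the colours overlap.

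With a kinase inhibitor added, RNR1 in AsPC-1 was again lower with the Vps34 inhibitor. Over the 14 kinase inhibitors, RNR1 held 2.28% ± 0.37 (SD, n = 28) of counts with hydroxychloroquine and 0.580% ± 0.071 (SD, n = 28) with the Vps34 inhibitor. The lowest of the former libraries was at 1.79% and the highest of the latter at 0.804%, so the groups did not overlap. The mean gap was −1.85 ± 0.04 (SE) in log2, 3.59-fold lower with the Vps34 inhibitor, with an adjusted p of 3.11e-41 by edgeR's quasi-likelihood test with Benjamini-Hochberg adjustment. In that comparison 31.1% of 12761 genes were called, and RNR1 ranked 1 among them by p. By size the RNR1 gap was not the widest, as that of TXNIP was −2.02 ± 0.10 (SE).

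The gap was called under 14 of 14 kinase inhibitors in AsPC-1, with an adjusted p (edgeR) of at most 1.88e-08, and in each of these comparisons RNR1 again ranked 1 of 12761 genes by p. Values below are given as plate A, then plate B, and a log2 difference is Vps34 inhibitor minus hydroxychloroquine with its standard error. Beside each stands the share of all genes called in that comparison.

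Among the RAF inhibitors in AsPC-1, Dabrafenib gave RNR1 shares of 1.99% and 3.005% with hydroxychloroquine against 0.555% and 0.501% with the Vps34 inhibitor, a log2 difference of −2.11 ± 0.15 (0.737% of genes called). GDC-0879 gave 2.01% and 2.87% against 0.461% and 0.546%, a difference of −2.19 ± 0.15 (0.549% called). These were the widest gaps of the class and had its highest plate B values with hydroxychloroquine. PLX8394 gave 1.98% and 2.44% against 0.564% and 0.601%, a difference of −1.79 ± 0.15 (1.1% called). RAF709 gave 2.11% and 2.20% against 0.569% and 0.592%, a difference of −1.72 ± 0.15 (1.1% called). Sorafenib, a multikinase inhibitor, gave 1.79% and 2.35% against 0.489% and 0.598%, a difference of −1.82 ± 0.15 (1.1% called). No pair of groups overlapped, but how often other genes separated in such comparisons was not counted.

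Among the MEK inhibitors in AsPC-1, Binimetinib gave 2.19% and 2.95% against 0.486% and 0.614%, a log2 difference of −2.12 ± 0.15 (0.721% of genes called). Cobimetinib gave 1.92% and 2.55% against 0.591% and 0.712%, the smallest gap of the class at −1.68 ± 0.15 (1.12% called). The hydroxychloroquine values of these drugs lay within the range of the other kinase inhibitors. Refametinib gave 1.90% and 2.59% against 0.521% and 0.586%, a difference of −1.90 ± 0.15 (0.776% called). Selumetinib gave 1.94% and 2.56% against 0.512% and 0.530%, a difference of −1.97 ± 0.15 (0.87% called). Trametinib gave 2.21% and 2.84% against 0.567% and 0.636%, a difference of −1.94 ± 0.15 (0.603% called).

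Among the ERK inhibitors in AsPC-1, AZD0364 gave 1.93% and 2.72% against 0.578% and 0.611%, a log2 difference of −1.88 ± 0.15 (0.729% of genes called). Ravoxertinib gave 1.81% and 2.24% against 0.640% and 0.804%, a difference of −1.32 ± 0.14 (1.59% called). This was the narrowest gap of the 14, with the highest RNR1 share of any Vps34 inhibitor group and the lowest of any hydroxychloroquine group. SCH772984 gave 1.86% and 2.43% against 0.594% and 0.602%, a difference of −1.72 ± 0.15 (1.83% called). Ulixertinib gave 1.94% and 2.51% against 0.521% and 0.648%, a difference of −1.68 ± 0.15 (1.33% called).

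As a ratio of mean shares, RNR1 was 2.80 to 4.84 times higher with hydroxychloroquine than with the Vps34 inhibitor over the 14 kinase inhibitors in AsPC-1 (median 3.86), against 4.21 without one. Whether the gap differed among the 14 was tested by an F test in edgeR, in which 0.0705% of genes were called. By edgeR RNR1 was not among them (adjusted p = 0.347, unadjusted p = 0.00955), nor by DESeq2 (adjusted p = 0.197).

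In order of mean RNR1 share in AsPC-1, all 15 hydroxychloroquine groups, the one without a kinase inhibitor included, stood above all 15 Vps34 inhibitor groups. The order ran from Binimetinib (2.57% ± 0.54, SD, n = 2), Trametinib and Dabrafenib down to Ravoxertinib (2.02% ± 0.31, SD, n = 2) with hydroxychloroquine. It went on with Ravoxertinib (0.722% ± 0.116, SD, n = 2) with the Vps34 inhibitor and ended with the Vps34 inhibitor alone (0.489% ± 0.047, SD, n = 6). Ranges of neighbouring groups overlapped everywhere in this order except at that single step between the autophagy inhibitors.

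Plate moved with the RNR1 share in AsPC-1. With hydroxychloroquine and a kinase inhibitor, plate A libraries held 1.97% ± 0.13 (SD, n = 14) and plate B libraries 2.59% ± 0.26 (SD, n = 14), with plate B higher under 14 of 14 kinase inhibitors. With the Vps34 inhibitor the shares were 0.546% ± 0.050 and 0.613% ± 0.075 (SD, n = 14 each), with plate B higher under 13 of 14. Within plate A the Vps34 inhibitor libraries were lower by a mean of −1.42 percentage points, and within plate B by −1.98, in 14 of 14 pairs each. Each gave p = 0.000122 in an exact sign-flip permutation test, the smallest it can give. The gap was thus present within each plate.

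In PANC-1 RNR1 also stood lower with the Vps34 inhibitor, but by far less. With a kinase inhibitor, the share was 0.679% ± 0.101 (SD, n = 28) with hydroxychloroquine, from 0.511% to 0.959%, and 0.527% ± 0.110 (SD, n = 28) with the Vps34 inhibitor, from 0.362% to 0.821%. The groups overlapped. The mean log2 gap was −0.40 ± 0.05 (SE), 1.32-fold lower, with an adjusted p (edgeR) of 6.01e-09, and 20.9% of 12627 genes were called in the same comparison. RNR1 ranked 108 among them by p.

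Under single kinase inhibitors, with 2 libraries against 2, edgeR called the RNR1 gap under 0 of 14 in PANC-1 (smallest adjusted p 0.0862). At an unadjusted p under 0.05 (edgeR) it passed under 9 of 14, where 760 to 1311 of 12627 genes passed per drug. DESeq2 called 2, Binimetinib and GDC-0879. All 14 fitted differences were below 0, from −0.68 to −0.0035. The one nearest to 0, Cobimetinib, turned to 0.0039 with DESeq2's size factors. The libraries did not overlap under 11 of 14 kinase inhibitors, each time with hydroxychloroquine higher. With 2 libraries against 2, such separation can arise by chance, and how often other genes separated was not counted.

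Among the RAF inhibitors in PANC-1, Dabrafenib gave RNR1 shares of 0.699% and 0.749% with hydroxychloroquine against 0.559% and 0.821% with the Vps34 inhibitor (log2 difference −0.11 ± 0.18, 0.119% of genes called). GDC-0879 gave 0.796% and 0.558% against 0.537% and 0.374% (−0.65 ± 0.18, 0.372% called). Dabrafenib groups overlapped because of the 0.821% library, the highest of the 34 with the Vps34 inhibitor in this line. PLX8394 gave 0.780% and 0.720% against 0.597% and 0.459% (−0.51 ± 0.18, 0.657% called). RAF709 gave 0.682% and 0.593% against 0.539% and 0.441% (−0.42 ± 0.18, 0.523% called). Sorafenib gave 0.632% and 0.517% against 0.480% and 0.539% and overlapped as well (−0.19 ± 0.18, 0.269% called).

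Among the MEK inhibitors in PANC-1, Binimetinib gave 0.575% and 0.718% against 0.451% and 0.393%, the widest gap in this line (−0.68 ± 0.18, 0.143% of genes called). Cobimetinib gave 0.608% and 0.572% against 0.672% and 0.523% (−0.0035 ± 0.18, 0.317% called). Here the Vps34 inhibitor libraries lay on both sides of those with hydroxychloroquine. Refametinib gave 0.736% and 0.656% against 0.481% and 0.442% (−0.59 ± 0.18, 0.348% called). Selumetinib gave 0.680% and 0.571% against 0.487% and 0.398% (−0.48 ± 0.18, 0.317% called). Trametinib gave 0.959% and 0.649% against 0.623% and 0.582% (−0.47 ± 0.18, 0.499% called).

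Among the ERK inhibitors in PANC-1, AZD0364 gave 0.626% and 0.666% against 0.503% and 0.362% (−0.66 ± 0.18, 0.15% of genes called). Ravoxertinib gave 0.735% and 0.511% against 0.484% and 0.442% (−0.42 ± 0.18, 0.341% called). No groups overlapped under any ERK inhibitor in this line. SCH772984 gave 0.709% and 0.718% against 0.684% and 0.500% (−0.24 ± 0.18, 0.879% called). Ulixertinib gave 0.765% and 0.835% against 0.665% and 0.708% (−0.24 ± 0.18, 1.17% called). In the F test of a difference among the 14, 0.0317% of genes were called by edgeR. RNR1 was not (adjusted p = 1 by edgeR and by DESeq2, unadjusted p = 0.166 by edgeR).

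The order of RNR1 shares in PANC-1 mixed the autophagy inhibitors. Hydroxychloroquine took ranks 1 to 6, led by Trametinib (0.804% ± 0.219, SD, n = 2) and Ulixertinib (0.800% ± 0.049, SD, n = 2). The Vps34 inhibitor with Dabrafenib (0.690% ± 0.185, SD, n = 2) and with Ulixertinib (0.687% ± 0.031, SD, n = 2) took ranks 7 and 8. Hydroxychloroquine alone stood at rank 18 and the Vps34 inhibitor alone at rank 28 of 30. The ranges of all neighbouring groups overlapped. Plate B was higher than plate A under 5 of 14 kinase inhibitors with hydroxychloroquine and 3 of 14 with the Vps34 inhibitor.

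The RNR1 gap was wider in AsPC-1 than in PANC-1 by −1.43 ± 0.06 (SE) in log2, from 1 model fitted over all libraries, with a plate term nested in each line. The adjusted p (edgeR) was 7.91e-37, and 15.8% of 13960 genes were called for this difference. For RNR2 the same difference was 0.13 ± 0.12 and was not called (adjusted p = 0.588, unadjusted p = 0.273, and adjusted p = 0.489 by DESeq2). Its 95% interval began at −0.10. The libraries of the lines carry separate names that were read as plates. The level of RNR1 in one line against the other therefore cannot be told apart from plate. The gap compares libraries within a plate.

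**Figure D2:**
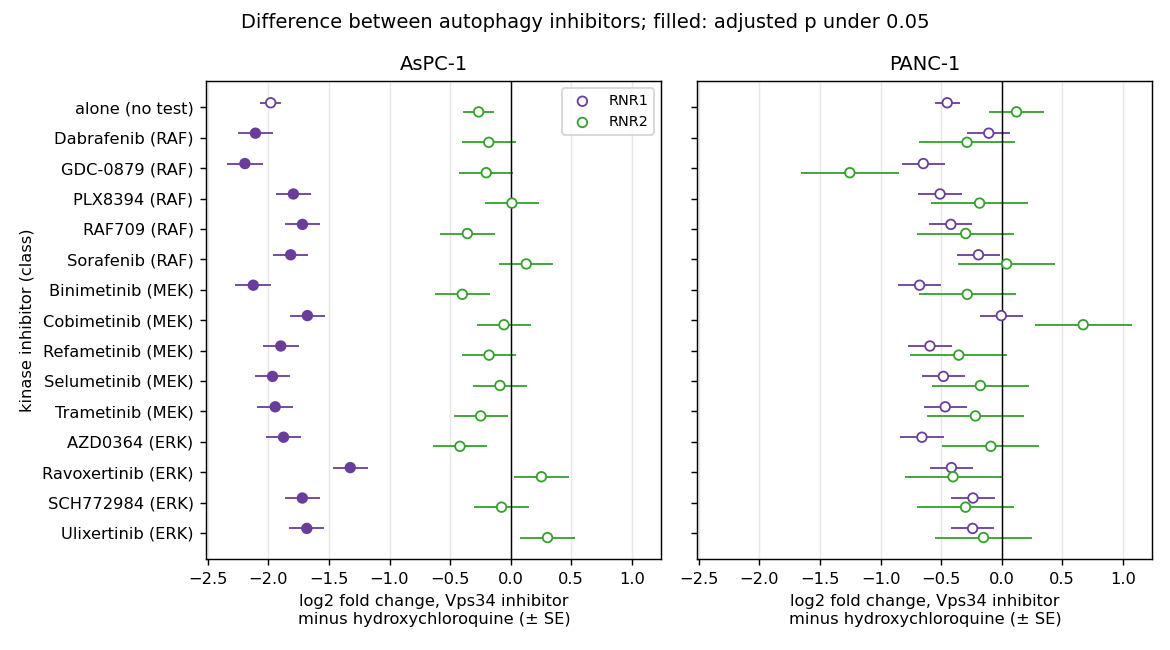
Log2 fold change of RNR1 and RNR2, Vps34 inhibitor minus hydroxychloroquine, under each kinase inhibitor and without one (rows), with bars of 1 standard error; filled points were called by edgeR, and the top row carries no test. RNR1 in AsPC-1 lies between −2.19 and −1.32 under all 14 kinase inhibitors, and RNR2 stays within 0.42 of 0 there.

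RNR2, transcribed with RNR1, did not show a gap of the size of RNR1 in AsPC-1. In PANC-1 a direct test of the ratio of the RNAs, given below, did not pass with all libraries. In AsPC-1 it held 3.84% ± 0.77 (SD, n = 28) of counts with hydroxychloroquine and a kinase inhibitor, from 2.81% to 5.93% (median 3.76%). With the Vps34 inhibitor it held 3.26% ± 0.44 (SD, n = 28), from 2.17% to 4.31% (median 3.26%). The groups overlapped, and the mean log2 gap was −0.11 ± 0.06 (adjusted p = 0.184, unadjusted p = 0.0813 by edgeR). In PANC-1 the shares were 3.17% ± 1.59 (SD, n = 28), from 1.56% to 10.45% (median 2.82%), and 2.69% ± 0.72 (SD, n = 28), from 1.83% to 4.37% (median 2.60%). That gap was −0.23 ± 0.11 (adjusted p = 0.12, unadjusted p = 0.0346). EdgeR called neither gap, in comparisons where 31.1% and 20.9% of genes were called. A paired permutation test of shares, given below, did call RNR2 lower with the Vps34 inhibitor in AsPC-1.

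Under single kinase inhibitors RNR2 was called under 0 of 14 in each line by edgeR, against the shares of genes given above for each drug. At an unadjusted p under 0.05 (edgeR) it passed under 0 of 14 in AsPC-1 and 1 of 14 in PANC-1, and DESeq2 called 0 and 1. Per drug, 1209 to 1760 of 12761 genes passed that level in AsPC-1 and 760 to 1311 of 12627 in PANC-1. The log2 differences ran from −0.42 (AZD0364) to 0.30 (Ulixertinib) in AsPC-1, with 10 of 14 below 0. In PANC-1 they ran from −1.25 (GDC-0879) to 0.67 (Cobimetinib), with 12 of 14 below 0. The F test of a difference among the 14 in edgeR did not call RNR2 in either line (adjusted p = 0.879 and 1, unadjusted p = 0.466 and 0.507).

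RNR2 libraries did not overlap under 5 of 14 kinase inhibitors in AsPC-1, each time with hydroxychloroquine higher. These were RAF709, Binimetinib, Trametinib, AZD0364 and SCH772984. With 2 libraries against 2, groups often separate by chance, and how often other genes did so was not counted. The separations below are therefore descriptions, and edgeR called RNR2 under none of these drugs. By the ratio of mean shares the widest of these was RAF709, at 5.93% and 3.75% with hydroxychloroquine against 3.36% and 3.38% with the Vps34 inhibitor. AZD0364, the widest by the fitted difference, gave 4.33% and 4.97% against 3.57% and 3.04%. Dabrafenib went apart by plate, at 2.90% and 4.58% against 3.91% and 2.17%, so plate A was lower and plate B higher with hydroxychloroquine. In PANC-1 hydroxychloroquine was higher without overlap under 5 of 14 (RAF709, Refametinib, Selumetinib, SCH772984 and Ulixertinib). The Vps34 inhibitor was higher under Cobimetinib alone, at 3.75% and 3.94% against 2.23% and 2.55%.

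One library stood apart for RNR2. The plate A library of PANC-1 with hydroxychloroquine and GDC-0879 held 10.45% of its 2298897 counts in RNR2, where its plate B partner held 2.66% and the next highest library of that line 4.63%. Its RNR1 share was 0.796%, and its summed mitochondrial messenger RNAs were the lowest of that line at 16.7%, of a total that includes RNR2. Relative to the counts outside mitochondrial DNA they stood at 23.2% and were not the lowest. The plate B library with hydroxychloroquine and Ravoxertinib was at 21.4% by that measure. Without the plate A library with GDC-0879, the mean RNR2 share with hydroxychloroquine and a kinase inhibitor in PANC-1 was 2.90%. With the plate B libraries of hydroxychloroquine left out, that comparison rested on this library, and edgeR called RNR2 (−1.94 ± 0.36, adjusted p = 0.0116) and RNR1 (−0.84 ± 0.20, adjusted p = 0.03) under GDC-0879. These calls were not made with all libraries.

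**Figure D3:**
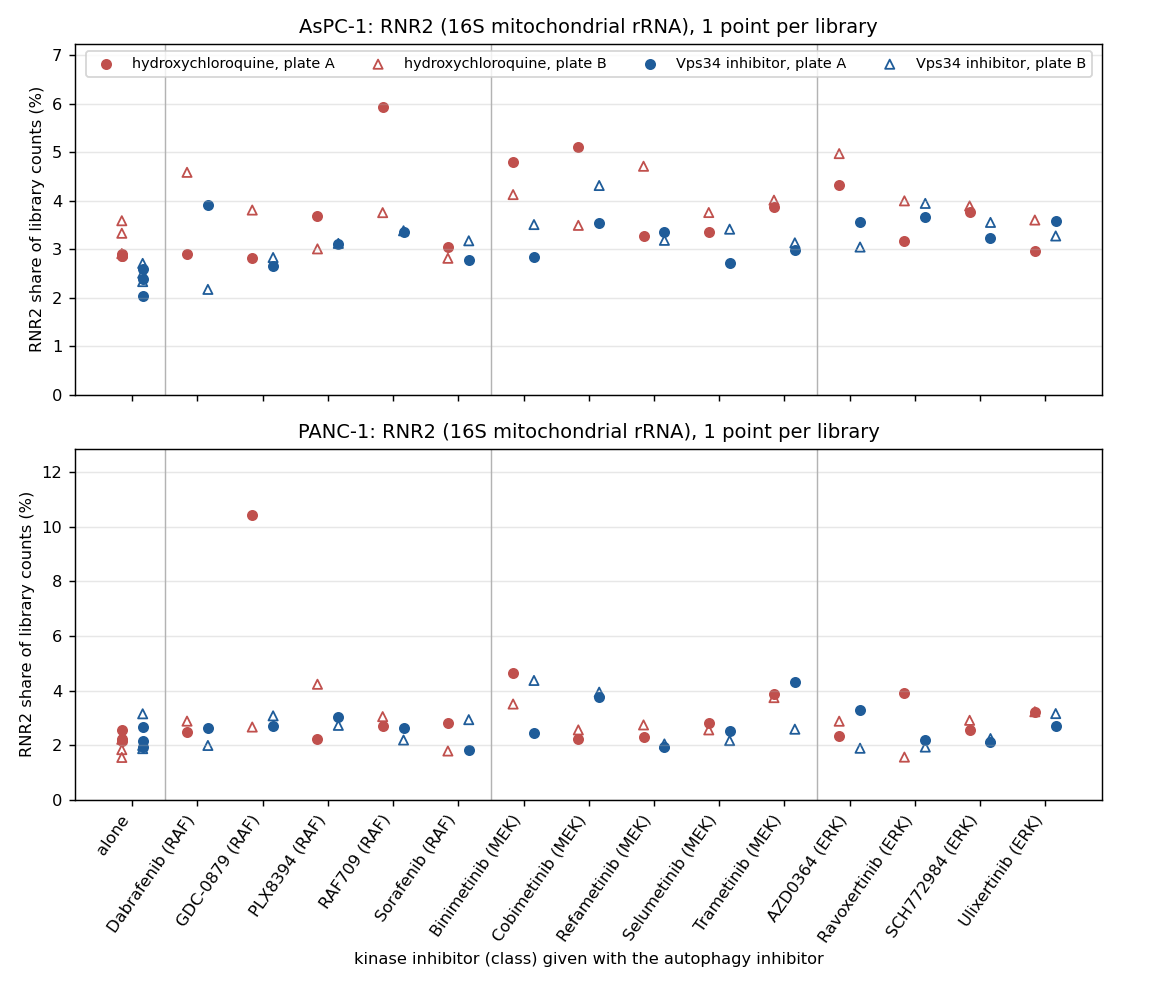
RNR2 as a percentage of each library's counts (vertical axis, from 0), laid out as in the plot of RNR1 shares, with 1 point per library. Most libraries of both autophagy inhibitors lie between 2% and 5%, and the PANC-1 library with hydroxychloroquine and GDC-0879 on plate A stands at 10.45%.

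In order of mean RNR2 share in AsPC-1, hydroxychloroquine with RAF709 (4.84% ± 1.54, SD, n = 2) and with AZD0364 (4.65% ± 0.45, SD, n = 2) came first, and the Vps34 inhibitor alone (2.43% ± 0.23, SD, n = 6) came last. Hydroxychloroquine alone stood at rank 23 of 30. In PANC-1 hydroxychloroquine with GDC-0879 led (6.56% ± 5.51, SD, n = 2), followed by Binimetinib (4.07% ± 0.80, SD, n = 2). Hydroxychloroquine alone was at rank 28 and the Vps34 inhibitor alone at rank 26. Neighbouring groups overlapped throughout both orders.

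Shares were also compared directly, without size factors, by a permutation test that swaps the autophagy inhibitors within each kinase inhibitor and plate (28 pairs per line, 100000 draws, two-sided). Adjusted values are over 10 such tests. For shares of the counts outside mitochondrial DNA they are over 6, and without the plate A GDC-0879 library of PANC-1 over 5. RNR1 was lower with the Vps34 inhibitor by −1.70 percentage points in AsPC-1, in 28 of 28 pairs (permutation p = 1e-05, the smallest these draws can give, adjusted p = 2.5e-05). In PANC-1 it was lower by −0.152 points, in 25 of 28 pairs (permutation p = 2e-05, adjusted p = 3.33e-05). RNR2 was lower by −0.580 points in AsPC-1, in 21 of 28 pairs (permutation p = 0.00225, adjusted p = 0.00321). That call was lost within plate A (−0.553, adjusted p = 0.0804). It was also lost as a share of the counts outside mitochondrial DNA (−0.639, permutation p = 0.0341, adjusted p = 0.0511). In PANC-1 the RNR2 difference of −0.484 points, lower in 18 of 28 pairs, did not pass (permutation p = 0.129, adjusted p = 0.144).

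The balance of the ribosomal RNAs shifted with the autophagy inhibitor in AsPC-1. Per base of length, RNR1 had 0.996 ± 0.195 (SD, n = 28) times the counts of RNR2 with hydroxychloroquine and a kinase inhibitor, from 0.581 to 1.37. With the Vps34 inhibitor the ratio was 0.293 ± 0.032 (SD, n = 28), from 0.232 to 0.377, so the groups did not overlap. The paired difference of the log2 ratio was −1.74, lower in 28 of 28 pairs (permutation, adjusted p = 2.5e-05). In PANC-1 the ratio per length was 0.387 ± 0.096 (SD, n = 28) with hydroxychloroquine and 0.338 ± 0.101 (SD, n = 28) with the Vps34 inhibitor. There the paired difference of −0.20, lower in 19 of 28 pairs, did not pass (permutation, adjusted p = 0.086). It passed at −0.26 without the single library with 10.45% of RNR2 (adjusted p = 0.014). Only in AsPC-1 with hydroxychloroquine, of these 4 sets of libraries, did the ratio per length reach 1 in any library. Without division by length, the log2 ratio in that set was at most −0.26, so RNR1 always had fewer counts than RNR2. Whether counts scale with length under capture by the poly(A) tail was not tested.

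RNR1 and the messenger RNAs of the same genome went in opposite directions in AsPC-1. The 13 messenger RNAs summed to 25.8% ± 2.3 (SD, n = 28) of counts with hydroxychloroquine and a kinase inhibitor and to 31.3% ± 1.9 (SD, n = 28) with the Vps34 inhibitor. That is a difference of 5.44 points, higher in 26 of 28 pairs (permutation, adjusted p = 2.5e-05). The log2 ratio of RNR1 to them was lower by −2.25, in 28 of 28 pairs (permutation, adjusted p = 2.5e-05). In PANC-1 the messenger RNAs summed to 19.4% ± 1.2 and 19.6% ± 1.1 (SD, n = 28 each) and did not pass (0.204 points, permutation p = 0.557). The log2 ratio of RNR1 to them was lower there by −0.40, in 24 of 28 pairs (permutation, adjusted p = 3.33e-05).

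**Figure D4:**
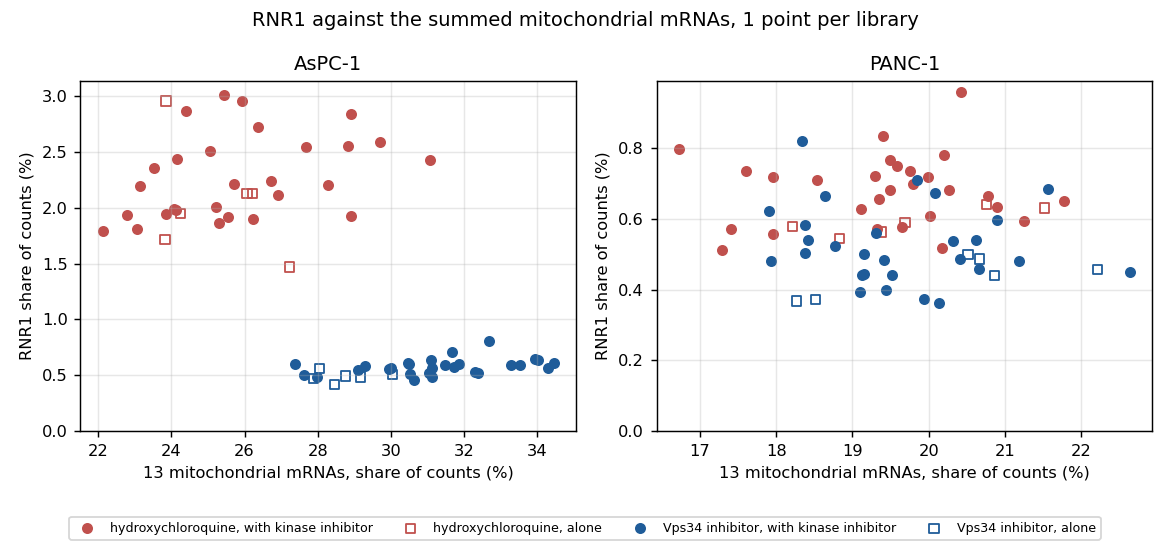
RNR1 share (vertical axis, %) against the summed share of the 13 mitochondrial messenger RNAs (horizontal axis, %), with 1 point per library; open squares are libraries without a kinase inhibitor. In AsPC-1 the hydroxychloroquine libraries lie above 1.4% of RNR1 and the Vps34 inhibitor libraries below 0.81%, with more messenger RNA in most of the latter, and in PANC-1 the sets overlap on both axes.

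By gene, in AsPC-1 the Vps34 inhibitor had 12 of the 13 messenger RNAs called higher and 0 lower (edgeR, mean gap, where 31.1% of all genes were called in either direction). Their median log2 difference was 0.39, against −0.026 over all genes. COX3, a subunit of cytochrome oxidase, rose by 0.65 ± 0.04, ATP6, a subunit of ATP synthase, by 0.51 ± 0.05, and CYTB, the cytochrome of complex III, by 0.51 ± 0.03. ND6, the only messenger RNA of the other strand, was called at 0.10 ± 0.04 (adjusted p = 0.048), but its sign turned without either set of plate A libraries (−0.0088 without hydroxychloroquine, −0.011 without the Vps34 inhibitor). The calls of ND5, ND4L and ATP8 in AsPC-1 were each lost in 2 of the 4 fits that left out 1 plate of an autophagy inhibitor. ND3 was not called (0.05 ± 0.06). In PANC-1, where 20.9% of genes were called, ND6 (0.20 ± 0.04) and ND4 (0.14 ± 0.03) were higher and ND3 (−0.20 ± 0.04) and ATP6 (−0.16 ± 0.04) lower, and the median was −0.028. The calls of ND4 and ATP6 in PANC-1 were lost when libraries of 1 plate were left out, ND4 with those of plate A and ATP6 with those of plate B of either autophagy inhibitor.

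**Figure D5:**
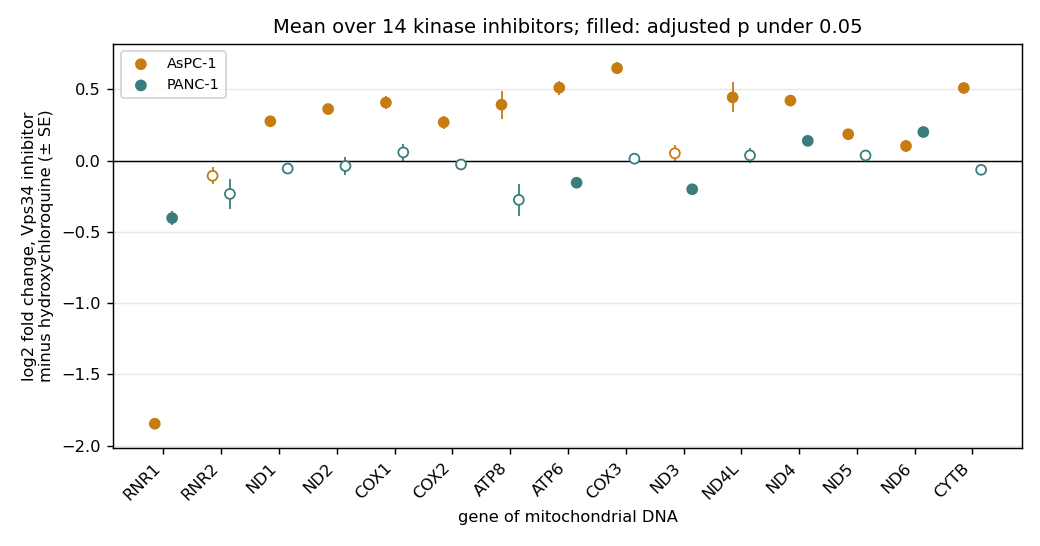
Log2 fold change, Vps34 inhibitor minus hydroxychloroquine, as the mean over 14 kinase inhibitors, for the 15 counted genes of mitochondrial DNA in genome order; bars are 1 standard error and filled points were called by edgeR. RNR1 in AsPC-1 stands at −1.85, while 12 messenger RNAs of the same line lie between 0.10 and 0.65.

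The classes of kinase inhibitor were compared within each autophagy inhibitor. RNR1 was called in 1 of these 12 comparisons and RNR2 in 0. Under the Vps34 inhibitor in AsPC-1, RNR1 was higher with ERK inhibitors than with RAF inhibitors by 0.23 ± 0.07 (adjusted p = 0.0133, edgeR), where 13.6% of genes were called. The call was lost without the plate B libraries of the Vps34 inhibitor (0.20, adjusted p = 0.216) and in a fit without plate as a block (0.24, adjusted p = 0.298). For RNR2 the same comparison gave 0.24 ± 0.11 (adjusted p = 0.143, unadjusted p = 0.0312).

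In the other class comparisons of AsPC-1, 7.02% of genes were called for MEK minus RAF and 0.972% for ERK minus MEK with the Vps34 inhibitor, and 8.76%, 9.35% and 0.00784% for MEK minus RAF, ERK minus RAF and ERK minus MEK with hydroxychloroquine. RNR1 and RNR2 were called in none of them by edgeR or DESeq2. The smallest unadjusted p was 0.0375 for RNR1 (ERK minus MEK with the Vps34 inhibitor, 0.14 ± 0.07) and 0.0506 for RNR2 (MEK minus RAF with hydroxychloroquine, 0.20 ± 0.10). In PANC-1 the shares of genes called in the same order were 7.03%, 5.59% and 0.499% with the Vps34 inhibitor and 6.96%, 5.72% and 0.23% with hydroxychloroquine. Neither RNA was called there by either tool, and no unadjusted p was under 0.05.

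Differences of the gap itself between classes were also tested. In AsPC-1 the RNR1 gap with ERK inhibitors was narrower than with RAF inhibitors by 0.28 ± 0.10 (unadjusted p = 0.00552, adjusted p = 0.3, edgeR) and than with MEK inhibitors by 0.27 ± 0.10 (unadjusted p = 0.00615, adjusted p = 0.393). Neither passed over all genes by edgeR or DESeq2, and only 0.102% and 0.0157% of genes did. MEK and RAF inhibitors differed by 0.0038 ± 0.090 (95% interval from −0.17), with 0.00784% called. In PANC-1 no gene was called in any of the 3 (0%), and the RNR1 differences were −0.013 ± 0.12 (ERK minus RAF), 0.06 ± 0.12 (ERK minus MEK) and −0.07 ± 0.11 (MEK minus RAF). RNR2 differences were not called in either line.

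Against the autophagy inhibitor alone, kinase inhibitor libraries were mostly higher in RNR2. These comparisons use the libraries that chose the pair and carry no test. In AsPC-1, RNR2 lay above the highest of the 6 libraries without a kinase inhibitor in 18 of 28 libraries with hydroxychloroquine and in 26 of 28 with the Vps34 inhibitor. The ratio of means was 1.25 and 1.34. In PANC-1 the counts were 19 of 28 and 6 of 28, with ratios of 1.52 and 1.17. A single library with the Vps34 inhibitor alone, at 3.15%, set the limit for the 6 of 28, with the next at 2.66%. Above the median of such libraries lay 26 of 28 with hydroxychloroquine and 22 of 28 with the Vps34 inhibitor. RNR1 exceeded the highest such library in 1 of 28 and 18 of 28 libraries in AsPC-1 (ratios 1.11 and 1.19) and in 18 of 28 and 15 of 28 in PANC-1 (ratios 1.15 and 1.21). RNR1 in AsPC-1 with hydroxychloroquine and a kinase inhibitor lay within the range of hydroxychloroquine alone in all but 1 library. The top of that range was set by a single library at 2.96%, with the next at 2.13%. Against the median of the libraries without a kinase inhibitor, RNR1 in AsPC-1 was higher in 17 of 28 libraries with hydroxychloroquine. With the Vps34 inhibitor it was higher in 25 of 28.

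The genes whose group means followed RNR1 most closely were listed by Pearson's correlation of log2 CPM over the 30 treatment groups of a line, as a description. All groups of a line share its plates, and in AsPC-1 the correlation mostly follows the split between the autophagy inhibitors. In AsPC-1, among 3301 genes with a mean log2 level of at least 5, these were TRIP10 (r = 0.927), TXNIP (0.926), PPP1R15A (0.912), SPAG1 (0.892) and GLIS2 (0.888). Within the 15 hydroxychloroquine groups the same genes had r between −0.646 and 0.392, and within the 15 Vps34 inhibitor groups between −0.0299 and 0.546. In PANC-1, among 3836 genes, they included HSD17B7 (0.679), LEPROT (0.667) and PSME3IP1 (0.640). Within the hydroxychloroquine groups these named genes had r between −0.0396 and 0.463, and within the Vps34 inhibitor groups between 0.135 and 0.57. RNR1 and RNR2 correlated with each other at 0.362 in AsPC-1 and 0.429 in PANC-1. Within the 15 hydroxychloroquine groups and the 15 Vps34 inhibitor groups the values were 0.553 and 0.919 in AsPC-1, and 0.511 and 0.24 in PANC-1.

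Nuclear genes that make, cut, modify and house these RNAs moved in both directions in the mean gap, in which 31.1% of all genes were called in AsPC-1 and 20.9% in PANC-1. For mitochondrial transcription and replication in AsPC-1, 3 of 13 genes were called higher and 0 lower under Vps34 inhibition, with a median of 0.088 against −0.026 over all genes, so fewer of them were called than the 31.1% of all genes. These were POLRMT, the polymerase that transcribes RNR1 and RNR2 (0.58 ± 0.19), its initiation factor TFB2M (0.37 ± 0.13) and TOP1MT, a mitochondrial topoisomerase (0.25 ± 0.09). Each of the 3 lost its call in at least 2 of the 4 fits that left out 1 plate of an autophagy inhibitor, at a mean of 4.23 to 22.0 CPM. In PANC-1, 0 were higher and 1 lower, MGME1, a nuclease of mitochondrial DNA (−0.50 ± 0.09).

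For processing and decay of mitochondrial RNA, 5 of 20 tested genes were higher and 4 lower in AsPC-1 (median 0.066), and 4 higher and 2 lower in PANC-1 (median −0.052, against −0.0060 over all genes). That is 9 and 6 called of 20, beside 31.1% and 20.9% of all genes. GRSF1, a protein of the granules in which mitochondrial RNA is processed, was lower in both lines (−0.28 ± 0.06 and −0.29 ± 0.05). REXO2, an oligoribonuclease, was higher in AsPC-1 (0.44 ± 0.07) and in PANC-1 (0.21 ± 0.05). FASTKD1 was higher in AsPC-1 (0.60 ± 0.12, lost at 0.36 without the plate B libraries of the Vps34 inhibitor). In PANC-1 LRPPRC, which binds mitochondrial messenger RNAs, was lower (−0.22 ± 0.05) and PTCD1 higher (0.23 ± 0.06). Both of these calls were lost when plate B libraries of the Vps34 inhibitor were left out.

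For modification of ribosomal RNA and assembly of the mitochondrial ribosome, 6 of 24 genes were higher and 2 lower in AsPC-1 (median 0.073), and 4 higher and 4 lower in PANC-1 (median 0.0096). The 8 of 24 called in AsPC-1 are near the 31.1% of all genes, and the background in PANC-1 was 20.9%. ERAL1, a GTPase that binds the 12S RNA, was lower in AsPC-1 (−0.32 ± 0.06), and so was MTG2, a GTPase of the large subunit (−0.39 ± 0.07). DHX30, a helicase needed for assembly of the large subunit, was higher in AsPC-1 (0.74 ± 0.11) and in PANC-1 (0.24 ± 0.06). NSUN4, which methylates the 12S RNA, was higher in PANC-1 (0.37 ± 0.07), and MALSU1, an assembly factor of the large subunit, was lower (−0.19 ± 0.05). The PANC-1 calls of DHX30 and MALSU1 were lost without the plate B libraries of either autophagy inhibitor.

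Proteins of the small subunit, which RNR1 scaffolds, were called higher in 5 and lower in 7 of 33 genes in AsPC-1 (median −0.016), and in 2 and 6 in PANC-1 (median −0.077). The 12 and 8 called of 33 are near the 31.1% and 20.9% of all genes called. MRPS6 (−0.44 ± 0.05) and MRPS10 (−0.33 ± 0.05) were lower and MRPS28 (0.46 ± 0.07) higher in AsPC-1, and MRPS11 (−0.27 ± 0.05) was lower in PANC-1. Proteins of the large subunit, which RNR2 scaffolds, were higher in 9 and lower in 12 of 49 tested genes in AsPC-1 (median 0.019), and in 1 and 9 in PANC-1 (median −0.061). That is 21 and 10 called of 49, beside 31.1% and 20.9% of all genes, and the PANC-1 count is near that background. MRPL14 was higher (0.37 ± 0.03) and MRPL47 (−0.40 ± 0.04) and MRPL58 (−0.41 ± 0.05) lower in AsPC-1. None of these subunit proteins came near the size of the RNR1 gap in AsPC-1.

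Among receptors and regulators of mitophagy, the autophagy of mitochondria, 1 of 13 tested genes was called higher and 3 lower in AsPC-1 (median −0.076), which is near the 31.1% of all genes called. The lower ones were PINK1, the kinase that marks damaged mitochondria (−0.74 ± 0.09), and the cargo receptors NBR1 (−0.31 ± 0.06) and OPTN (−0.26 ± 0.06, lost at −0.18 without the plate B libraries of hydroxychloroquine). In PANC-1, 5 of 15 were higher and 0 lower (median 0.096), beside 20.9% of all genes called, among them the receptors SQSTM1 (0.38 ± 0.05), TAX1BP1 (0.33 ± 0.07) and OPTN (0.32 ± 0.07). The calls of TAX1BP1 and OPTN in PANC-1 were lost without the plate B libraries of the Vps34 inhibitor. Of the nuclear copies of RNR2, 3 were tested and 0 were called in either line by edgeR (medians −0.38 and −0.26), with an unadjusted p under 0.05 for 0 in AsPC-1 and for 1, MTRNR2L8, in PANC-1. Their part in the counts of RNR2 was not tested beyond the 0.0356% given above.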

How the data were processed

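Libraries were made by PLATE-Seq from wells of each cell line (68 wells per line). The deposited table holds raw read counts per gene symbol, with no normalization. Per the submitters' processing notes, kallisto 0.44.0 and GRCh38 were used. Their role is not given in the sources read, nor is the annotation. Groups came from the labels, and plates A and B were inferred from the library names.

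Shares are counts divided by the library total. Fits used edgeR 4.0.16 (R 4.3.3, limma 3.58.1) with TMM size factors, filterByExpr and a robust quasi-likelihood test of group plus plate for each line, with 37 residual degrees of freedom. Benjamini-Hochberg adjustment ran over all genes tested, and a call is an adjusted p under 0.05. DESeq2 1.42.0 was an alternative, as were its size factors, no filter on low counts, no plate block, and leaving out each plate of an autophagy inhibitor. Paired shares were tested by permutation (SciPy 1.17.1). Sequences come from GRCh38 with GENCODE release 29. The scripts were tested on simulated data.

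Libraries were paired by the plate inferred from their names. Their deviations from the group means correlated at a median of 0.0304 (AsPC-1) and 0.0519 (PANC-1) over 378 pairs of groups. Named genes were RNR1, RNR2, the genes of mitochondrial DNA, up to 3 called members of each other list per line with the smallest adjusted p, and per line the 5 genes most correlated with RNR1 among those whose mean log2 CPM was 5 or more. Some of the latter are not reported here. The members and lists were chosen with earlier results of these data known.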

Additional observations from a re-analysis of the deposited data

Results flagged for a closer look

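Within each line, autophagy inhibitor and class of kinase inhibitor, the highest and lowest library were compared with the rest by Dixon's rule. Of 48 sets checked, 5 had a library apart, where chance alone gives about 1 in 20. In AsPC-1 with the Vps34 inhibitor, the plate B library with Ravoxertinib held 0.804% of RNR1, above the other ERK inhibitor libraries. The plate B library with Cobimetinib held 4.31% of RNR2, above the other MEK inhibitor libraries. In PANC-1 with hydroxychloroquine, the plate A library with Trametinib held 0.959% of RNR1, above the other MEK inhibitor libraries. The plate A library with GDC-0879 held 10.45% of RNR2, above the other RAF inhibitor libraries, at 2298897 counts in all. In PANC-1 with the Vps34 inhibitor, the plate B library with Dabrafenib held 0.821% of RNR1, above the other RAF inhibitor libraries.

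The RNR1 gap between the autophagy inhibitors differed between the lines in a test of the difference itself, by −1.43 in log2 (edgeR, adjusted p = 7.91e-37). The causes of these differences were not tested.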

How the results depend on the processing

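Of 2036 values recomputed under alternatives for 200 results, 1971 stayed on their side of the threshold or near the main count, 64 of them uncalled values whose sign changed. A further 44 no longer passed, 8 newly passed, 11 moved and 2 reversed. The reversed ones were ND6 in AsPC-1 without plate A of hydroxychloroquine (−0.0088) or of the Vps34 inhibitor (−0.011), in a range of −0.011 to 0.22 over the libraries left out. Without the replicate block by plate, the RNR1 difference between ERK and RAF inhibitors with the Vps34 inhibitor in AsPC-1 was 0.24 and no longer passed (adjusted p = 0.298). Leaving out libraries gave 0.20 to 0.30 for it, with 0.20 (adjusted p = 0.216) without plate B of the Vps34 inhibitor. Genes called in the mean gap fell from 3968 to between 2468 and 3079 in AsPC-1 and from 2638 to between 1239 and 1604 in PANC-1 when 1 plate of an autophagy inhibitor was left out, with fewer samples in each fit. Without the GDC-0879 library alone, 2654 were called in PANC-1. Kinase inhibitors with a called RNR1 gap in PANC-1 numbered 0 by edgeR, 2 by DESeq2 and 0 to 1 with libraries left out. For RNR2 there the numbers were 0, 1 and 0 to 1. The RNR2 share difference in AsPC-1 ran from −0.607 to −0.553 within plates, and was −0.639 of the counts outside mitochondrial DNA, where it no longer passed. The log2 ratio of RNR1 to RNR2 in PANC-1 ran from −0.28 to −0.12 within plates and passed at −0.26 without the GDC-0879 library with 10.45% of RNR2, an alternative chosen after seeing the data. The causes were not tested. With 2 libraries for each combination, single kinase inhibitors have little precision, and counting error is small beside the spread between wells.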
